A study of Mus musculus with 24 samples.

Results

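The genes described here are 6 components of the machinery with which a mouse cell detects foreign RNA: Ddx58, Ifih1, Dhx58, Tlr3, Eif2ak2 and Mavs. Probes were chosen by gene symbol alone, through the RefSeq accession that the array design lists for each probe, and where a gene had several probes the brightest on average stands for it. The 6 genes had 10 probes, out of 32994 probes that matched 22911 named genes, and all 6 were among the 14428 genes bright enough to be tested. They were followed in ID8, a mouse ovarian cancer line derived from surface epithelium, after 3 h with recombinant mouse interferon epsilon (IFN epsilon) or interferon beta (IFN beta). Each interferon was given at 10, 100 and 1000 IU/ml, and untreated cultures received the PBS vehicle. RNA was hybridised in 1 colour (Cy3) to 24 Agilent arrays on 3 slides. There were 3 biological replicates, made on separate dates per the series design text, which also says that wells treated alike were combined before measurement. Each untreated sample was hybridised on 2 arrays, which were averaged. The labels mark 2 arrays as excluded from the submitters' analysis because interferon-stimulated genes were unusually high on them, namely the third replicates of the groups with 10 and 100 IU/ml IFN beta. They were left out here, which leaves 19 samples, with 2 in each of those groups and 3 in each of the other 5. That exclusion rests on the kind of gene measured here, so every IFN beta value at 10 and 100 IU/ml depends on it, and values with the 2 arrays are given beside the results they change.

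RIG-I, encoded by Ddx58, and MDA5, encoded by Ifih1, are helicases that bind double-stranded or uncapped RNA in the cytoplasm and then engage the mitochondrial adaptor MAVS, which switches on type I interferon genes. LGP2, the product of Dhx58, belongs to the same helicase family but lacks the signalling domains and modulates the other two. TLR3 senses double-stranded RNA in endosomes, and PKR, the kinase encoded by Eif2ak2, halts translation by phosphorylating eIF2alpha when double-stranded RNA binds it. Several of these genes are themselves interferon-stimulated in many cell types. IFN beta and IFN epsilon are both type I interferons that use the receptor made of IFNAR1 and IFNAR2, and IFN epsilon is known for its constitutive expression in the female reproductive tract.

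Promoter windows of 300 bases, from 250 before to 50 after the annotated start, were available from RefSeq (GRCm38.p6) for 5 of the 6 genes. They were searched on both strands for the interferon-stimulated response element, a promoter element of genes that type I interferons switch on, written as GAAA followed, after any 2 bases, by GAAA. It was found in 3.44% of all 32851 windows. The 3 windows below are shown because they hold the response element, whose letters are in capitals, in genes whose array values moved together. They are Ddx58 (chr4:40239776-40240075, minus strand), Ifih1 (chr2:62646206-62646505, minus strand) and Eif2ak2 (chr17:78882523-78882822, minus strand), each read in the direction of the gene.
Ddx58: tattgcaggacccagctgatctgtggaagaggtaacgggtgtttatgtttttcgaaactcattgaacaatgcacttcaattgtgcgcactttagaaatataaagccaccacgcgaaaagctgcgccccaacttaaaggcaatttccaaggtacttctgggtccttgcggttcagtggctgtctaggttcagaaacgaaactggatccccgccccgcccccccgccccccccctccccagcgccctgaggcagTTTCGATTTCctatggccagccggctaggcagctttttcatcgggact
Ifih1: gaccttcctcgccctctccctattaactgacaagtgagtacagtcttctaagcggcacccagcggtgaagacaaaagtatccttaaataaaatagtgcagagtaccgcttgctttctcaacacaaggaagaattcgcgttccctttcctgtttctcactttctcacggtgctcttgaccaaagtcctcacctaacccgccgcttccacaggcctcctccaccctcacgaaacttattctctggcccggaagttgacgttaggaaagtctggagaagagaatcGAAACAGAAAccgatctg
Eif2ak2: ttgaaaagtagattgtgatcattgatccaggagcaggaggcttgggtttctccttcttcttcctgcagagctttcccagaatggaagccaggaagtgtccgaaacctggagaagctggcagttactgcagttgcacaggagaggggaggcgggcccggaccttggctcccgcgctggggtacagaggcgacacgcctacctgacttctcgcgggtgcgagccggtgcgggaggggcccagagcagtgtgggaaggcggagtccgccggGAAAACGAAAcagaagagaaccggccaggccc
The match lay after the start site in each: 2 to 11 bases after it in Ddx58, on the opposite strand, 18 to 27 bases after it in Eif2ak2 and 32 to 41 bases after it in Ifih1. The windows of Tlr3 (chr8:45410331-45410630, minus strand, within the annotated gene) and Mavs (chr2:131233813-131234112, plus strand) did not hold it, which says only that these letters are not in those windows. A match is a description of the sequence and not evidence that a factor binds there.

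Levels are given as scaled intensity, the scanner's background-subtracted signal divided by that array's 75th percentile and multiplied by 1000. Levels of different genes are not compared, because each probe has its own brightness. The 75th percentile itself lay between 643.5 and 1221 on the arrays used, 47.9% to 57.1% of probes were well above background, and 0 probe spots were saturated. The percentile split by date: 643.5 to 844 on the replicate 3 arrays used, and 955 to 1221 on those of replicates 1 and 2. The 57.1% was replicate 3 at 1000 IU/ml IFN epsilon, and every other array used was at 54.5% or less. The 11 markers listed for ovarian surface epithelium and mesothelium were well above background on all 6 untreated arrays. Of 12 leukocyte markers, 6 were above background on all untreated arrays (Cd3e, Itgam, Csf1r, Cd68, Cd74 and Siglech) and 6 on none of them, and Ptprc, Cd79a, Lyz2 and Itgax were above it on 0 of the 22 arrays. Of 7 fibroblast markers 5, and of 5 endothelial markers 1, were above background on all untreated arrays. No marker that was bright enough to be tested passed in a comparison with untreated cells. Because a sample is RNA of a whole culture, more cells that express a gene and more RNA per cell cannot be told apart.

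Of the 6 genes, 5 rose with interferon and the adaptor did not. In the text that follows, a gene is said to have risen where limma's Benjamini-Hochberg adjusted p over all 14428 genes was under 0.05. At 1000 IU/ml, Ddx58, Ifih1, Dhx58, Tlr3 and Eif2ak2 rose with either interferon, by 4.10-fold (Eif2ak2) to 23.8-fold (Tlr3, from a level close to background) with IFN epsilon and by 4.31-fold (Eif2ak2) to 19.3-fold (Tlr3) with IFN beta. Mavs, at -0.21 to 0.01 log2 units from untreated cells, passed in none of the 6 comparisons. At lower doses the counts differed: IFN epsilon at 100 IU/ml raised 5 of the 6 genes and IFN beta at 100 IU/ml raised 1, Dhx58. At 10 IU/ml, IFN epsilon raised Ddx58 and Dhx58, and IFN beta raised none.

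These counts stand against the share of all tested genes called in the same comparison. IFN epsilon called 0.201% of genes at 10 IU/ml, 1.05% at 100 IU/ml and 2.26% at 1000 IU/ml, beside 2, 5 and 5 of the 6 members. IFN beta called 0% at 10 IU/ml, 0.111% at 100 IU/ml and 1.56% at 1000 IU/ml, beside 0, 1 and 5 members. For IFN beta at 10 IU/ml, limma's unadjusted p was under 0.05 in 47 of the 14428 genes. That is a smaller share than 0.05, the share expected if no gene changed, and so is each such count given below. These counts are therefore no sign of change. The fit without a block leaves differences between dates in the spread. The median log2 fold change of the 6 members at 1000 IU/ml IFN epsilon was 3.08, and that of all tested genes was -0.07. With the 2 arrays labelled excluded put back, which raises the spread that all groups share, the counts were 0, 0 and 1 with IFN epsilon and 0 at every dose of IFN beta, while the IFN epsilon fold changes stayed as they were. In fits restricted to the groups compared, the counts were 0 at 10 IU/ml IFN epsilon, 0 at 100 IU/ml IFN beta and 2 at 1000 IU/ml IFN beta.

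**Figure D1:**
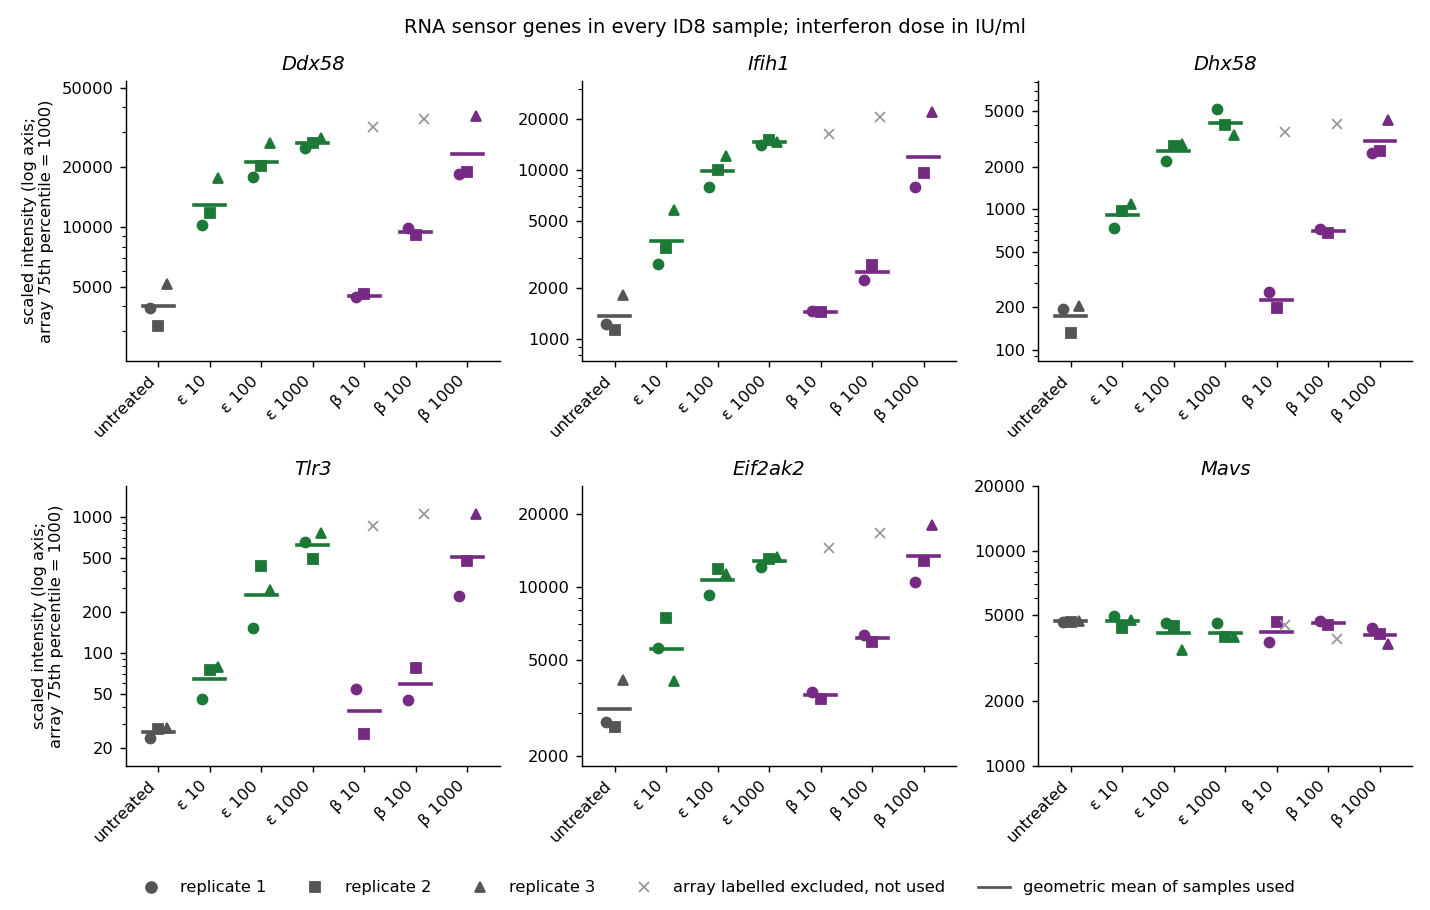
Scaled intensity (log axis, array 75th percentile set to 1000) of the probe standing for each gene in every sample, by treatment and dose in IU/ml, with markers for replicates 1 to 3, a line at the geometric mean, and grey crosses for the 2 arrays labelled excluded. The geometric means of the 5 responding genes are higher at each higher dose of either interferon, and Mavs lies between 3471 and 4970 in all samples used.

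Dhx58, the gene of the regulator LGP2 (chr11:100694884-100704271, GRCm38.p6), passed in 5 of the 6 comparisons with untreated cells, more than any other of the 6 genes. In untreated cells its scaled intensity was 197, 132 and 205 in replicates 1 to 3. With IFN epsilon it was 734, 964 and 1083 at 10 IU/ml, 2207, 2804 and 2902 at 100 IU/ml, and 5161, 3972 and 3373 at 1000 IU/ml. With IFN beta it was 260 and 199 at 10 IU/ml, 726 and 682 at 100 IU/ml, and 2532, 2578 and 4344 at 1000 IU/ml. The lowest sample at 10 IU/ml IFN epsilon was thus above every untreated sample, whereas the 2 samples at 10 IU/ml IFN beta overlapped the untreated range. The log2 fold change over untreated cells with IFN epsilon was 2.39 ± 0.24 (SE; limma adjusted p = 0.000468) at 10 IU/ml, 3.91 ± 0.24 (adjusted p = 7.82e-07) at 100 IU/ml and 4.55 ± 0.24 (adjusted p = 1.22e-07) at 1000 IU/ml. With IFN beta it was 0.38 ± 0.27 (adjusted p = 1.00), 2.01 ± 0.27 (adjusted p = 0.00835) and 4.13 ± 0.24 (adjusted p = 3.83e-07). The call at 100 IU/ml IFN beta was lost without replicate 1 of that group (log2 fold change 1.97, limma adjusted p = 0.242). With the excluded arrays put back, the values at 10 and 100 IU/ml IFN beta were 1.70 and 2.86 and did not pass (limma adjusted p = 1.00 for both). Ordered by geometric mean, the groups ran from untreated (175) through IFN beta 10 (227), IFN beta 100 (704), IFN epsilon 10 (915), IFN epsilon 100 (2619) and IFN beta 1000 (3050) to IFN epsilon 1000 IU/ml (4104). Neighbours whose samples overlapped were untreated and IFN beta 10, IFN epsilon 100 and IFN beta 1000, and both groups at 1000 IU/ml.

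Ddx58, encoding RIG-I, rose at all 3 doses of IFN epsilon and at 1000 IU/ml IFN beta. Untreated samples read 3920, 3182 and 5211. IFN epsilon gave 10251, 11860 and 17721 at 10 IU/ml, 17817, 20352 and 26369 at 100 IU/ml, and 25161, 26629 and 28037 at 1000 IU/ml. IFN beta gave 4461 and 4599 at 10 IU/ml, 9875 and 9140 at 100 IU/ml, and 18433, 18909 and 36439 at 1000 IU/ml. Every IFN epsilon sample lay above every untreated sample, and the third replicate was the highest in untreated cells and in each IFN epsilon dose. The log2 fold change with IFN epsilon was 1.68 ± 0.27 (limma adjusted p = 0.0111), 2.40 ± 0.27 (adjusted p = 0.000113) and 2.72 ± 0.27 (adjusted p = 2.23e-05) from the lowest to the highest dose. With IFN beta it was 0.17 ± 0.30 (adjusted p = 1.00), 1.24 ± 0.30 (adjusted p = 0.404) and 2.54 ± 0.27 (adjusted p = 5.90e-05). With the replicate date as a block, the rise at 100 IU/ml IFN beta passed as well (limma adjusted p = 0.00353). It was 1.11 at 10 and 1.87 at 100 IU/ml IFN beta with the excluded arrays, neither passing. At 10 IU/ml IFN epsilon the call was lost without untreated replicate 1, untreated replicate 2 or IFN epsilon replicate 3, with log2 fold changes of 1.67, 1.51 and 1.46 and limma adjusted p of 0.0709, 0.0975 and 0.0849. It was also lost with arrays centred on their median (limma adjusted p = 0.137), with only the groups compared in the fit (0.262) and with the excluded arrays put back.

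Ddx58 was measured by 4 probes, and the others gave changes of the same sign in every comparison with untreated cells. At 10 IU/ml IFN epsilon the others gave 1.79, 1.84 and 1.85. Tested among all probes, the probe at 1.79 did not pass (limma adjusted p = 0.0558). At 1000 IU/ml IFN epsilon the log2 fold change was 2.72 for the probe that stands for the gene and 3.09 to 3.24 for the others. In the order of geometric means, Ddx58 ran from untreated (4021) through IFN beta 10 (4529), IFN beta 100 (9500), IFN epsilon 10 (12916), IFN epsilon 100 (21225) and IFN beta 1000 (23331) to IFN epsilon 1000 IU/ml (26583). The 3 highest groups overlapped one another, as did untreated cells and IFN beta 10.

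Ifih1, encoding MDA5, which prefers long double-stranded RNA, rose at 100 and 1000 IU/ml IFN epsilon and at 1000 IU/ml IFN beta. Its untreated samples were at 1220, 1134 and 1807. IFN epsilon gave 2761, 3445 and 5795 at 10 IU/ml, 7927, 9994 and 12172 at 100 IU/ml, and 14004, 15102 and 14731 at 1000 IU/ml. IFN beta gave 1464 and 1436 at 10 IU/ml, 2239 and 2732 at 100 IU/ml, and 7914, 9632 and 22001 at 1000 IU/ml. All samples at 10 IU/ml IFN epsilon lay above all untreated samples, but the log2 fold change of 1.49 ± 0.34 did not pass without the block (limma adjusted p = 0.193) and passed with it (adjusted p = 0.00404). At 100 and 1000 IU/ml IFN epsilon the log2 fold changes were 2.86 ± 0.34 (limma adjusted p = 0.000240) and 3.43 ± 0.34 (adjusted p = 2.51e-05). With IFN beta they were 0.09 ± 0.38 at 10 IU/ml and 0.87 ± 0.38 at 100 IU/ml, neither passing (limma adjusted p = 1.00 for both), and 3.13 ± 0.34 (adjusted p = 8.04e-05) at 1000 IU/ml. The excluded arrays turned those at 10 and 100 IU/ml IFN beta into 1.26 and 1.88, which did not pass. The geometric means were 1357 in untreated cells, 1450 and 2473 with 10 and 100 IU/ml IFN beta, 3805 and 9880 with 10 and 100 IU/ml IFN epsilon, 11881 with 1000 IU/ml IFN beta and 14605 with 1000 IU/ml IFN epsilon. The third replicate at 1000 IU/ml IFN beta was more than the sum of the other 2 samples of its group.

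Tlr3, the endosomal receptor, went from close to background to a clear signal. Untreated samples were at 23.7, 27.6 and 28.0, and the probe was well above background on 4 of the 6 untreated arrays. IFN epsilon gave 45.7, 75.6 and 78.8 at 10 IU/ml, 153, 436 and 292 at 100 IU/ml, and 660, 490 and 761 at 1000 IU/ml. IFN beta gave 54.8 and 25.3 at 10 IU/ml, 45.4 and 77.6 at 100 IU/ml, and 262, 473 and 1055 at 1000 IU/ml. At 1000 IU/ml IFN beta its SD between replicates was 1.01 log2 units, against 0.12 to 0.78 for the other genes. The log2 fold change with IFN epsilon was 1.30 ± 0.48 (limma adjusted p = 1.00) at 10 IU/ml, 3.35 ± 0.48 (adjusted p = 0.00119) at 100 IU/ml and 4.57 ± 0.48 (adjusted p = 3.83e-05) at 1000 IU/ml. With IFN beta it was 0.50 ± 0.53, 1.17 ± 0.53 and 4.27 ± 0.48, of which the last passed (limma adjusted p = 0.000102). The excluded arrays moved the first 2 of these to 2.00 and 2.56, which did not pass. With normexp background correction the values at 1000 IU/ml were 2.89 with IFN epsilon and 2.58 with IFN beta, still called but below those of Dhx58 (4.01 and 3.68), so the order of these genes depends on the background correction. A second Tlr3 probe, above background on 5 of 6 untreated arrays, gave 3.81 at 1000 IU/ml IFN epsilon and 3.31 at 1000 IU/ml IFN beta. By geometric mean, the groups ran from untreated (26.3) through IFN beta 10 (37.2), IFN beta 100 (59.4), IFN epsilon 10 (64.8), IFN epsilon 100 (269) and IFN beta 1000 (508) to IFN epsilon 1000 IU/ml (627), and of the neighbours only IFN epsilon 10 and 100 were free of overlap.

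Eif2ak2, encoding the kinase PKR, had the smallest fitted log2 fold change of the 5 genes at 1000 IU/ml of either interferon. It was at 2758, 2643 and 4124 in untreated cells. IFN epsilon gave 5559, 7406 and 4067 at 10 IU/ml, 9196, 11819 and 11245 at 100 IU/ml, and 12084, 13004 and 13197 at 1000 IU/ml. IFN beta gave 3684 and 3430 at 10 IU/ml, 6321 and 5898 at 100 IU/ml, and 10473, 12800 and 17941 at 1000 IU/ml. At 10 IU/ml IFN epsilon, replicates 1 and 2 lay above all untreated samples and replicate 3 lay just under the untreated sample of its own date. The log2 fold change there was 0.83 ± 0.23 (limma adjusted p = 0.650), and without date 3 it was 1.25 (adjusted p = 0.0210), an alternative added after the values were seen. At 100 and 1000 IU/ml IFN epsilon it was 1.78 ± 0.23 (adjusted p = 0.000551) and 2.04 ± 0.23 (adjusted p = 7.86e-05). With IFN beta the values were 0.19 ± 0.26, 0.97 ± 0.26 and 2.11 ± 0.23, and limma's adjusted p was 1.00, 0.703 and 8.81e-05. At 10 and 100 IU/ml they became 0.87 and 1.46 with the excluded arrays, again without passing. The geometric means were 3109 in untreated cells, 3555 and 6106 with 10 and 100 IU/ml IFN beta, and 5512 with 10 IU/ml IFN epsilon, between them. They were 10692 and 12752 with 100 and 1000 IU/ml IFN epsilon and 13398 with 1000 IU/ml IFN beta, and the latter 2 groups overlapped.

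Mavs, the adaptor that relays the signal of both helicases, showed no rise at any dose. Untreated samples were at 4677, 4679 and 4703. IFN epsilon gave 4970, 4392 and 4764 at 10 IU/ml, 4628, 4485 and 3471 at 100 IU/ml, and 4597, 3965 and 3951 at 1000 IU/ml. IFN beta gave 3772 and 4645 at 10 IU/ml, 4729 and 4493 at 100 IU/ml, and 4347, 4114 and 3696 at 1000 IU/ml. The log2 fold changes were 0.01, -0.17 and -0.17 with IFN epsilon and -0.16, -0.02 and -0.21 with IFN beta, with SEs of 0.13 to 0.14 and no adjusted p under 0.05. Their 95% confidence intervals ran from -0.48 at the lowest to 0.28 at the highest, so a rise larger than 0.28 log2 units lay outside every interval. At 100 and 1000 IU/ml IFN epsilon and at 10 and 1000 IU/ml IFN beta, all treated samples were below all untreated samples, by amounts that did not pass the test. Each untreated sample is a mean of 2 arrays, however, and the single untreated arrays ran from 4420 to 4949. That range holds 4628 and 4485 at 100 IU/ml IFN epsilon, 4597 at 1000 IU/ml IFN epsilon and 4645 at 10 IU/ml IFN beta. It holds no sample at 1000 IU/ml IFN beta. With arrays centred on their median instead, Mavs at 1000 IU/ml IFN epsilon was at -0.54, and the median of all genes moved with it from -0.07 to -0.44. Leaving out replicate 2 at 10 IU/ml IFN beta gave -0.31, and leaving out replicate 1 at 100 IU/ml IFN epsilon gave -0.25, neither of which passed.

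**Figure D2:**
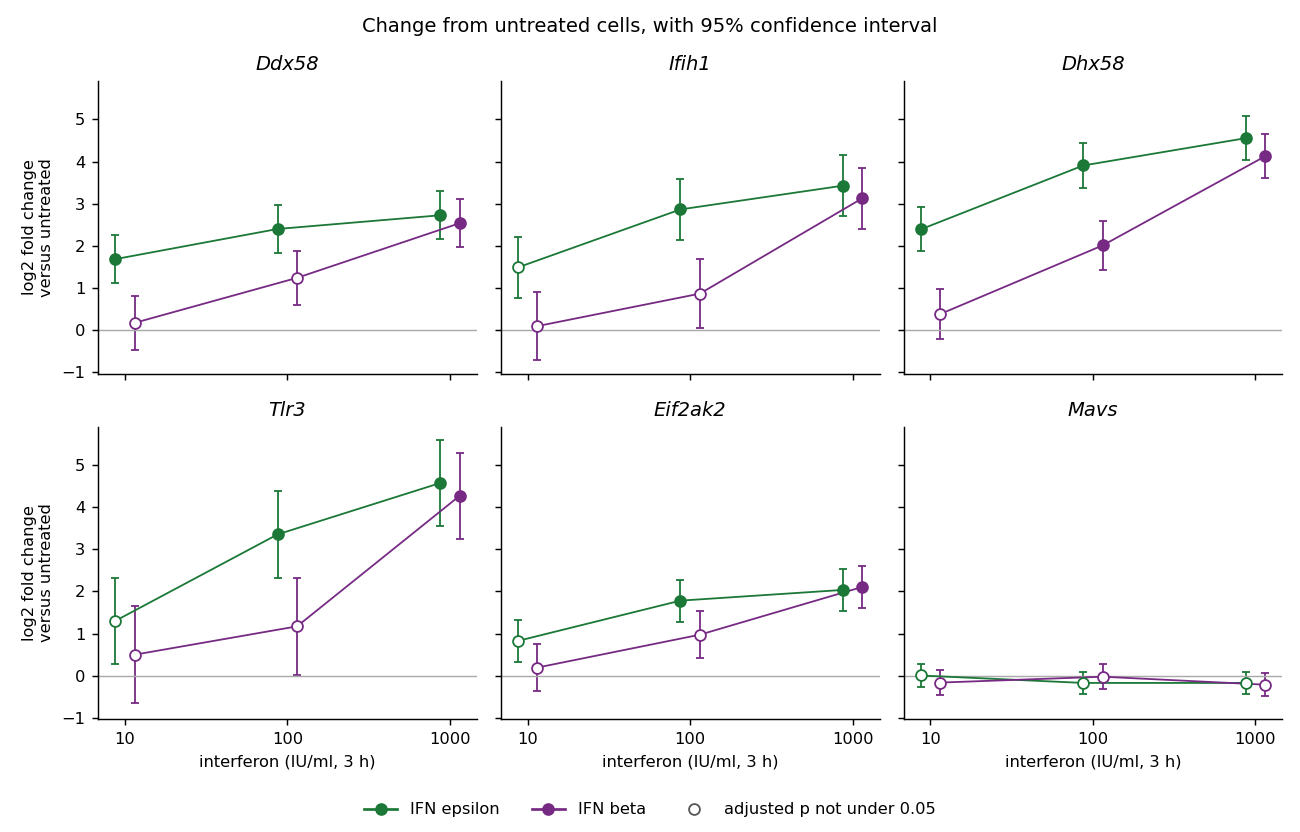
Log2 fold change over untreated cells with its 95% confidence interval (limma) against the dose in IU/ml, for IFN epsilon (green) and IFN beta (purple); filled points have an adjusted p under 0.05. The IFN epsilon points lie above the IFN beta points at 10 and 100 IU/ml for the 5 responding genes and near them at 1000 IU/ml, and the Mavs points lie between -0.21 and 0.01.

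At the lower doses, each gene listed here reached a larger share of its log2 fold change at 1000 IU/ml with IFN epsilon than with IFN beta. These shares were not tested. The change from 10 to 1000 IU/ml, compared between the interferons, called 0 members. With IFN epsilon, the log2 fold change at 10 IU/ml was 61.8% of that at 1000 IU/ml for Ddx58, 52.5% for Dhx58, 43.4% for Ifih1, 40.6% for Eif2ak2 and 28.4% for Tlr3. At 100 IU/ml it was 88.1% for Ddx58, 87.5% for Eif2ak2, 85.8% for Dhx58, 83.5% for Ifih1 and 73.4% for Tlr3. With IFN beta at 100 IU/ml it was 48.9% for Ddx58, 48.7% for Dhx58, 46.2% for Eif2ak2, 27.7% for Ifih1 and 27.5% for Tlr3. At 10 IU/ml IFN beta, where no member passed, it was 11.7% for Tlr3, 9.22% for Dhx58, 9.16% for Eif2ak2, 6.77% for Ddx58 and 3.03% for Ifih1. Among the probes that stand for the genes, Ddx58 thus stood first and Tlr3 last at both lower doses of IFN epsilon. The same held at 100 IU/ml IFN beta, but not at 10 IU/ml IFN beta, and the order was not tested. It depended on the probe at 100 IU/ml of either interferon. At 100 IU/ml IFN beta, the other Ddx58 probes gave shares under that of Dhx58. The second Tlr3 probe gave a share above that of Ifih1 there. At 100 IU/ml IFN epsilon, another Ddx58 probe gave a share under those of Eif2ak2 and Dhx58. The IFN beta shares depend on leaving out the arrays labelled excluded. With them put back, the log2 fold change of Dhx58 was 1.70 instead of 0.38 at 10 IU/ml IFN beta. At 100 IU/ml IFN beta it was 2.86 instead of 2.01.

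Between doses, IFN epsilon at 100 against 10 IU/ml called 0.0624% of all genes and 1 of the 6, Dhx58, with a log2 difference of 1.52 ± 0.24 (limma adjusted p = 0.0349). That call was lost when any 1 of the 6 samples of those groups was left out. With the date as a block Ifih1 passed too (difference 1.38, adjusted p = 0.0216). From 100 to 1000 IU/ml IFN epsilon called 0% of genes and 0 members. A limma unadjusted p under 0.05 was found in 404 genes, again a smaller share than 0.05. The members' differences at that step were 0.65 ± 0.24 for Dhx58 and 1.22 ± 0.48 for Tlr3, and between 0.25 and 0.56 for Ddx58, Ifih1 and Eif2ak2.

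IFN beta at 100 against 10 IU/ml called 0% of genes and 0 members, with 133 genes at a limma unadjusted p under 0.05. At 1000 against 100 IU/ml it called 0.464% of genes and 3 members: Tlr3 (3.10 ± 0.53, limma adjusted p = 0.0224), Ifih1 (2.26 ± 0.38, adjusted p = 0.0224) and Dhx58 (2.12 ± 0.27, adjusted p = 0.00334). Ddx58 differed by 1.30 ± 0.30 (adjusted p = 0.0983) and passed with the block (adjusted p = 0.00843), and Eif2ak2 by 1.13 ± 0.26 (adjusted p = 0.0941). The other Tlr3 probe, tested among all probes, differed by 2.10 ± 0.57 and did not pass (limma adjusted p = 0.249). With the arrays labelled excluded put back, this step called 0 genes. The count of 3 fell to 0 without replicate 1 and to 1 without replicate 2 at 100 IU/ml, and rose to 5 without replicate 1 at 1000 IU/ml.

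IFN epsilon and IFN beta were compared directly at each dose to ask whether equal units raise the sensors equally. Dhx58 was higher with IFN epsilon at 10 IU/ml, by 2.01 ± 0.27 log2 units (limma adjusted p = 0.0122), and at 100 IU/ml, by 1.90 ± 0.27 (adjusted p = 0.0117). It was the only member of the 6 to pass, in comparisons that called 0.0970% and 0.0901% of all genes. All IFN epsilon samples of Dhx58 lay above all IFN beta samples at both doses, and within dates the differences were 1.50 and 2.28 at 10 IU/ml and 1.60 and 2.04 at 100 IU/ml. Both calls were lost in 4 of the 5 fits that left out 1 sample of those groups. Adjusted p then ranged from 0.0205 to 0.381 at 10 IU/ml, highest without IFN beta replicate 2, and from 0.0292 to 0.174 at 100 IU/ml, highest without IFN beta replicate 1. In each case the fit without IFN epsilon replicate 1 kept the call. With the 2 arrays labelled excluded put back, the differences were 0.69 and 1.05 and did not pass (limma adjusted p = 1.00 for both). Nor did they with arrays centred on their median (limma adjusted p = 0.272 and 0.183) or with only the groups compared in the fit (0.448 and 0.192).

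Ddx58 was 1.51 ± 0.30 log2 units higher with IFN epsilon at 10 IU/ml (limma adjusted p = 0.101) and 1.16 ± 0.30 higher at 100 IU/ml (adjusted p = 0.292). With the date as a block the differences were 1.33 and 0.97, and both passed (adjusted p = 0.0188 and 0.0277). Ifih1 differed by 1.39 ± 0.38 at 10 IU/ml (limma adjusted p = 0.909) and by 2.00 ± 0.38 at 100 IU/ml (adjusted p = 0.0851). The latter passed with the block, at 1.78 (adjusted p = 0.0177). With the excluded arrays put back, the differences at 10 and 100 IU/ml fell to 0.57 and 0.53 for Ddx58 and to 0.23 and 0.98 for Ifih1, and none passed. All IFN epsilon samples of both genes were above all IFN beta samples at these doses, and the within-date differences lay between 0.85 and 1.87.

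Tlr3 differed by 0.80 ± 0.53 at 10 IU/ml (95% confidence interval -0.34 to 1.94), where its dates disagreed in sign (-0.26 and 1.58). At 100 IU/ml it differed by 2.18 ± 0.53 (limma adjusted p = 0.228), in the same direction on dates 1 and 2. Eif2ak2 differed by 0.63 ± 0.26 and 0.81 ± 0.26, neither passing (limma adjusted p = 1.00 and 0.792). The excluded arrays changed these differences to -0.71 and 0.80 for Tlr3 and to -0.040 and 0.32 for Eif2ak2. For Mavs the intervals were -0.14 to 0.47 at 10 IU/ml and -0.45 to 0.16 at 100 IU/ml.

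At 1000 IU/ml the comparison of the interferons called 0% of genes and 0 members, with 186 genes at a limma unadjusted p under 0.05. On dates 1 and 2 alone it called 13 genes, and again 0 members. The differences were 0.19 for Ddx58 (95% confidence interval -0.38 to 0.76), 0.30 for Ifih1 (-0.43 to 1.02), 0.43 for Dhx58 (-0.10 to 0.95), 0.30 for Tlr3 (-0.72 to 1.33), -0.07 for Eif2ak2 (-0.57 to 0.42) and 0.04 for Mavs (-0.23 to 0.31). With arrays centred on their median the signs for Ddx58 (-0.038) and Mavs (-0.19) turned, while the median of all genes was at -0.25, and that for Eif2ak2 turned in the authors' deposited table (0.0065). The intervals do not show that the interferons act alike at this dose: they leave room for differences of up to 1.33 log2 units. The dates were split, as IFN epsilon was higher for the 5 responding genes on dates 1 and 2 and lower on date 3. Dhx58, for example, differed by 1.03, 0.62 and -0.36, and Ifih1 by 0.82, 0.65 and -0.58. The IFN beta sample of date 3 was the highest of its group for all 5 genes, and it shares its date with the 2 arrays labelled excluded. Whether it shares what made those arrays unusual was not tested. Without it, the log2 fold changes over untreated cells at 1000 IU/ml IFN beta were 2.22 for Ddx58, 2.69 for Ifih1 and 1.90 for Eif2ak2, and all 5 genes still passed.

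The fitted change from 10 to 1000 IU/ml was lower with IFN epsilon than with IFN beta for all 6 genes. That count includes Mavs, at -0.13 ± 0.19, which did not rise at any dose. The median of all tested genes was also negative (-0.03), and the share of genes below it is not given here. The contrast rests on IFN beta at 10 IU/ml without the excluded array. With the excluded arrays put back, Dhx58 was there 1.70 log2 units above untreated cells instead of 0.38. The contrast also uses the IFN beta sample at 1000 IU/ml that was highest of its group for all responding genes. The interaction called 0% of genes and 0 members, with 132 genes at a limma unadjusted p under 0.05. It was -1.58 ± 0.37 for Dhx58 (limma unadjusted p = 0.000700, adjusted p = 1.00) and -1.32 ± 0.40 for Ddx58 (unadjusted p = 0.00504, adjusted p = 1.00).

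**Figure D3:**
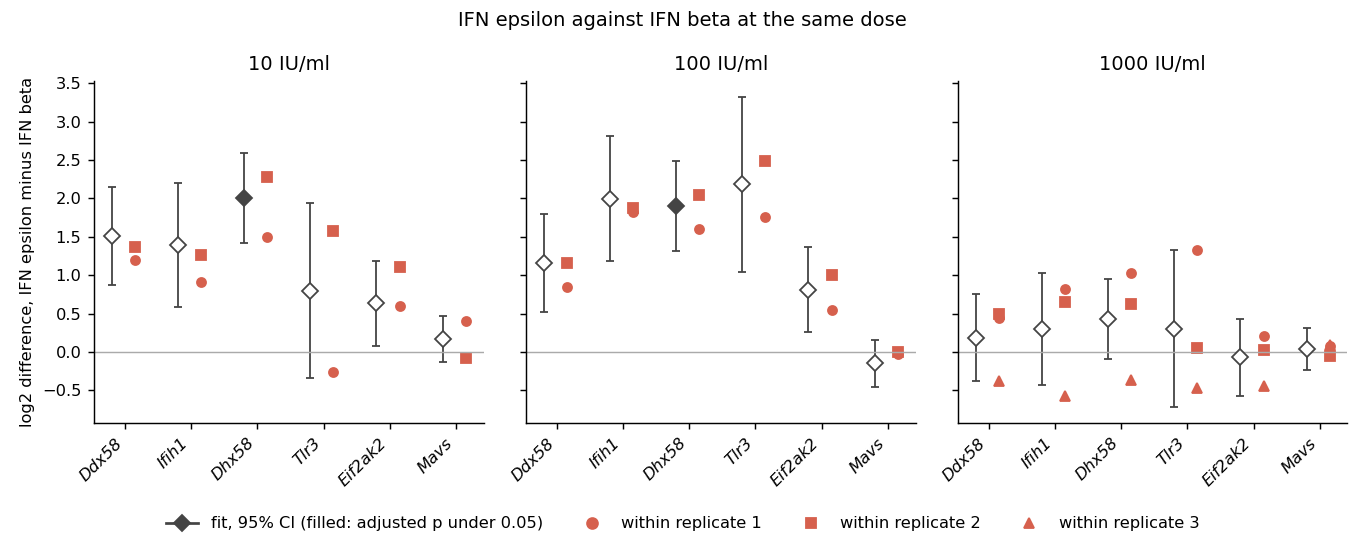
Log2 difference of IFN epsilon minus IFN beta at 10, 100 and 1000 IU/ml for each gene: diamonds give the fitted value with its 95% confidence interval (filled where the adjusted p was under 0.05), and red symbols the difference within each replicate date. Dhx58 is filled at 10 IU/ml (2.01) and 100 IU/ml (1.90), and at 1000 IU/ml the third date lies under 0 for the 5 responding genes.

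The genes whose values most resembled each sensor over the 19 samples were picked by Pearson correlation, as a description, since the samples share doses, dates and slides. For Ddx58 they were Irf7 (r = 0.995), the transcription factor that amplifies interferon production, Oasl2 (0.989) and Trim34a (0.989). For Ifih1 they were Ifi205 (0.997), Tgtp2 (0.996) and Parp12 (0.995), and for Dhx58 Phf11d (0.998), Ifi44 (0.997) and Oasl2 (0.994). For Tlr3 they were the immunity-related GTPase gene Iigp1 (0.982), the guanylate-binding protein gene Gbp5 (0.981) and Phf11b (0.980), and for Eif2ak2 Gbp3 (0.988), Ifi204 (0.974) and Phf11a (0.971). Several of these have near-identical relatives that a probe may not separate, among them Trim34a, Tgtp2, the Phf11 and Gbp genes, and Ifi204 and Ifi205. Among the 5 responding sensors r lay between 0.916 (Ddx58 and Tlr3) and 0.981 (Ddx58 and Dhx58). Mavs correlated with them at -0.446 to -0.591, and the genes most like it were Vamp1 (0.860), Leng8 (0.851) and Arl16 (0.846).

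The rest of the pathway was read from 5 lists with 87 genes, of which 84 were tested. In these lists 6, 13 and 16 genes rose with IFN epsilon at 10, 100 and 1000 IU/ml and 0, 4 and 15 with IFN beta, and 0 fell. With the date as a block, 12 rose at 10 IU/ml IFN epsilon and 8 at 100 IU/ml IFN beta. At 1000 IU/ml the block gave 20 higher and 3 lower with IFN epsilon (Traf3, Dhx33 and Eif2ak4, at -0.51, -0.42 and -0.27), and 16 higher and 1 lower with IFN beta (Traf3, at -0.31). Over all 14428 genes, the block at 1000 IU/ml called 1185 with IFN epsilon, 624 of them higher. With IFN beta it called 462, 393 of them higher. The list medians below stand beside the medians of all tested genes, which lay between -0.0654 and -0.00382 in these comparisons.

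Most of the risers were other receptors of foreign RNA. Of 20 tested in that list, 5, 8 and 10 rose with IFN epsilon and 0, 4 and 10 with IFN beta, and the list median at 1000 IU/ml was 1.20 with IFN epsilon and 1.097 with IFN beta. They include the oligoadenylate synthetases, which make the activator of RNase L. At 10 IU/ml IFN epsilon, Oas3 rose by 3.17 ± 0.27 log2 units (limma adjusted p = 0.000165), Oas2 by 3.11 ± 0.35 (adjusted p = 0.000616) and the related Oasl1 by 2.24 ± 0.41 (adjusted p = 0.0444). At 100 IU/ml IFN beta, Oas2 rose by 3.05, Oas3 by 2.63 and the helicase gene Ddx60 by 1.90. Ifit1, whose product binds RNA that lacks cap methylation, rose by 6.29 and 7.09 at 100 and 1000 IU/ml IFN epsilon and by 6.83 at 1000 IU/ml IFN beta. Zbp1, a sensor of left-handed double-stranded nucleic acid, rose by 5.60 at 1000 IU/ml IFN epsilon, where Oas2 rose by 5.59. With the same dose of IFN beta, Oas2 and Oas3 rose by 5.32 and 5.17.

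Among 23 cofactors and regulators of RIG-I and MDA5, 3 rose at 100 and 1000 IU/ml IFN epsilon and at 1000 IU/ml IFN beta. They were Trim25, the ubiquitin ligase that activates RIG-I, Zc3hav1, encoding the RNA-binding antiviral protein ZAP, and Adar, whose product edits double-stranded RNA and keeps it from MDA5. Their log2 fold changes were 1.92, 2.12 and 1.39 at 1000 IU/ml IFN epsilon, and at 1000 IU/ml IFN beta 1.85, 1.92 and 1.24. Adar at 100 IU/ml IFN epsilon (0.98 ± 0.22) passed narrowly (limma adjusted p = 0.04997). The list medians were -0.09 and -0.08 at 1000 IU/ml of IFN epsilon and IFN beta.

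Downstream of the sensors, 1 of 22 adaptors, kinases and factors rose, Irf7, by 2.38, 3.43 and 3.88 log2 units with IFN epsilon from the lowest to the highest dose and by 3.67 with 1000 IU/ml IFN beta. Ifnb1, the gene that the pathway switches on, is given because its value stands out in the plot of the lists and was chosen after it was seen. It was not well above background on any untreated array, so no size of change was measured. At 1000 IU/ml IFN epsilon it did not pass (limma adjusted p = 0.453). The fitted log2 fold change there, 2.89 ± 1.17, is given only as the plotted value. Of 9 genes of TLR3 trafficking, Wdfy1, which helps recruit the TLR3 adaptor, rose by 0.48 and 0.57 at 100 and 1000 IU/ml IFN epsilon and by 0.47 at 1000 IU/ml IFN beta. Ctss, a lysosomal protease gene, also passed at 1000 IU/ml IFN epsilon (limma adjusted p = 0.0156) with a value at least 1.15-fold higher, since no untreated array had it well above background. The 10 genes of the eIF2alpha axis, which hold the other eIF2alpha kinases and the phosphatase subunits that oppose PKR, had 0 calls in all 6 comparisons with untreated cells. With the date as a block, 2 of them passed at 1000 IU/ml IFN epsilon, the stress-response factor gene Ddit3 (0.35, limma adjusted p = 0.0430) and the kinase gene Eif2ak4 (-0.27, adjusted p = 0.0219). That fit called 1185 of all 14428 genes in this comparison, 624 of them higher, so these calls are not particular to the list.

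**Figure D4:**
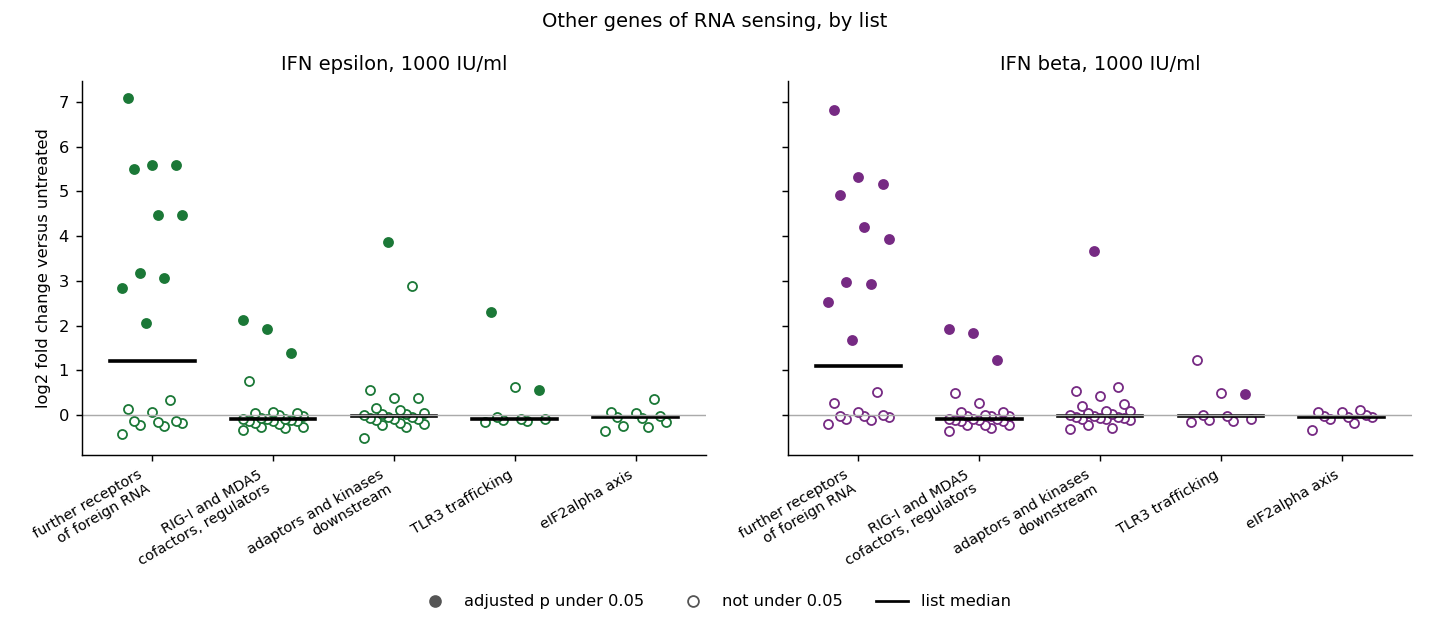
Log2 fold change over untreated cells at 1000 IU/ml of IFN epsilon (left) and IFN beta (right) for each tested gene of 5 lists of RNA-sensing genes; filled points have an adjusted p under 0.05, and black lines are list medians. The filled points are mostly in the list of further receptors, 10 of 20 in each panel, and the eIF2alpha axis has none.

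Of the 87 listed genes, 70 had a promoter window, and 11 of these held the response element. Among the 16 genes that rose at 1000 IU/ml IFN epsilon, 5 of 12 with a window held the response element, and among the others 6 of 58 did. These counts are a description of the letters in the windows, beside 3.44% of all windows, and the genes were chosen for their part in RNA sensing and not at random. The units differ: a gene was counted if any of its windows held the element. The 3.44% is a share of 32851 single windows, which belong to 27025 genes.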

How the data were processed

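RNA of ID8 cells was measured on 24 Agilent 1-colour arrays, 22 of them used. The scanner files hold intensity values that the authors' scanner software, Agilent Feature Extraction 11.0.1.1, background-subtracted within each array, per the file headers. A table of log2 values that the authors deposited served as an alternative. The submitters' processing notes list R 3.6.1 and limma 3.42.0, but the steps behind it were not given. Over all 24 columns its values run from -1.57 to 18.5, and the column medians from 5.52 to 5.54. Set against the scanner signal on a log2 scale, each column correlated at 0.989 to 0.995, so the scale is known and genes were not centred. Whether any offset was applied is unknown.

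Control spots and outlier spots (79 to 280 per array) were dropped, log2 of the signal minus the array's 75th percentile was taken, and repeat spots were averaged. RefSeq accessions gave the gene names. The filter kept a probe that was well above background in 2 or more samples of some group. For genes with several probes, the brightest on average was used. A gene not well above background on any untreated array has only a bound, computed from the lowest signal among probes well above background on each array. The number of arrays limits the precision.

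Tests used limma 3.58.1 in R 4.3.3 (lmFit, eBayes), 1 fit over 19 samples in 7 groups with 12 residual degrees of freedom, and Benjamini-Hochberg adjustment over 14428 genes in each of 14 comparisons, tested on simulated data. The replicate numbers mark dates, per the series design text. Deviations of 52 pairs of samples with the same number correlated at a median of 0.47 (-0.06 to 0.77), and of 102 pairs with different numbers at -0.21, so a fit with the replicate block was run as an alternative. Genes named are the 6 members, up to 3 called genes of largest change per pathway list and comparison, and the 3 genes most correlated with each member. Outside this rule, Ifnb1 and the genes called only with the block were chosen after their values were seen, and markers come from their lists. The members and lists were chosen with earlier results of these data known. Alternatives covered scaling, background correction, filters, probes, slide, samples and the excluded arrays. The scanner files used here have no mean signal, so normexp (offset 50) ran on the median signal. Tables were read with data.table (version 1.17.8), slides handled with statmod 1.5.0, and plots drawn in Python with matplotlib. A second promoter motif is not reported here.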

Additional observations from a re-analysis of the deposited data

Results flagged for a closer look

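The 2 arrays labelled excluded were left out of the main fit and used only in alternatives, and the 5 responding genes were above every untreated array on both. At 10 IU/ml IFN beta, replicate 3, scaled intensity was 31952 for Ddx58 (highest untreated array 5351), 16319 for Ifih1 (1861), 3544 for Dhx58 (206), 854 for Tlr3 (45.5) and 14414 for Eif2ak2 (4396). The samples of this dose that were used lay between 199 and 260 for Dhx58 and between 4461 and 4599 for Ddx58. At 100 IU/ml IFN beta, replicate 3, it was 34871 for Ddx58, 20481 for Ifih1, 4071 for Dhx58, 1061 for Tlr3 and 16695 for Eif2ak2. These values lay within the range of the 3 samples at 1000 IU/ml IFN beta for all 5 genes, except Tlr3 at 100 IU/ml, which was just above its highest value of 1055. The top of that range is replicate 3, of the same date as these arrays, and for all 5 genes both arrays were above replicates 1 and 2 at 1000 IU/ml. Mavs was at 4521 and 3892 on these arrays.

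The effects of the interferons at 1 dose differed by a test of the difference itself for Dhx58, which was 2.01 log2 units higher with IFN epsilon than with IFN beta at 10 IU/ml and 1.90 higher at 100 IU/ml (limma adjusted p = 0.0122 and 0.0117). Both calls depend on leaving out the arrays labelled excluded: with them put back the differences were 0.69 and 1.05 and did not pass. Neither passed with arrays centred on their median (limma adjusted p = 0.272 and 0.183) or with only the groups compared in the fit (0.448 and 0.192).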

How the results depend on the processing

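Of 993 values of single genes under an alternative, 910 kept their direction and side of the threshold, 43 lost and 20 gained a call, and 20 changed sign, none of them called. Most of the 993 belong to comparisons in which the gene was not called, so a call could be lost only in the smaller part. Fits of single probes are not among them. With all 24 arrays the counts of members called were 0 at 10 and 100 and 1 at 1000 IU/ml IFN epsilon, 0 at 100 and 1000 IU/ml IFN beta, and 0 for both interferons compared at 10 and 100 IU/ml and for both dose steps that had calls. With median scaling they were 1 at 10 IU/ml IFN epsilon, 0 at 100 IU/ml IFN beta, 0 for the interferons at 10 and at 100 IU/ml, 0 for IFN epsilon 100 versus 10 and 1 for IFN beta 1000 versus 100. With only the groups compared they were 0, 0 and 2 (IFN epsilon 10, IFN beta 100 and 1000), and 0 in the 4 direct comparisons. Quantile normalization and the authors' table gave 2 at 100 IU/ml IFN beta, and these and normexp, which was run on the median signal, gave 2 for the interferons at 10 and 100 IU/ml. The replicate block gave 2 at 100 IU/ml IFN beta, 2 and 3 for the interferons at 10 and 100 IU/ml, and 2 for IFN epsilon 100 versus 10, and changed no other count by over 1.5 times. Dates 1 and 2 alone gave 4 at 10 IU/ml IFN epsilon, 3 at 100 IU/ml IFN beta, and 2, 3 and 2 in those comparisons. Without the filter IFN epsilon 100 versus 10 gave 0, and with slide as a block IFN beta 1000 versus 100 gave 1.

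Leaving out 1 sample gave 1 to 2 members at 10 IU/ml IFN epsilon, 0 to 1 at 100 IU/ml IFN beta, 0 to 1 for the interferons at 10 and 100 IU/ml, 0 for IFN epsilon 100 versus 10 and 0 to 5 for IFN beta 1000 versus 100; where it leaves 1 sample in a group, that sample is assumed to vary like the others.

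Over all genes, 29, 326, 16 and 225 calls at 10 and 1000 IU/ml IFN epsilon and 100 and 1000 IU/ml IFN beta became 74, 1185, 41 and 462 with the block, 13 between the interferons at 100 IU/ml became 52, 9 for IFN epsilon 100 versus 10 became 54 and 67 for IFN beta 1000 versus 100 became 124. Of the 1185, 624 were higher, against 316 of 326 without the block. Dates 1 and 2 alone gave 32 at 100 IU/ml IFN beta, 65 and 13 between the interferons at 100 and 1000 IU/ml, and 40 and 7 for IFN epsilon 100 versus 10 and 1000 versus 100. With all 24 arrays, there were 70 calls at 1000 IU/ml IFN epsilon and 0 in the others. Median scaling, which moved the median of all genes by over 0.1 at 1000 IU/ml (to -0.44 with IFN epsilon and -0.19 with IFN beta), gave 173, 0 and 145 at 1000 IU/ml IFN epsilon and 100 and 1000 IU/ml IFN beta, 0 between the interferons, 0 for IFN epsilon 100 versus 10 and 29 for IFN beta 1000 versus 100. The 6, 13 and 16 pathway genes that rose with IFN epsilon became 0, 0 and 8 with all 24 arrays, and the 4 and 15 at 100 and 1000 IU/ml IFN beta both became 0. The 4 became 0 with median scaling, 2 without the filter and 8 with the block, which also turned 6 into 12.

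Sign changes, all among values that passed no test and with no cause tested, were these. Mavs at 10 IU/ml IFN epsilon was -0.025 with slide as a block and -0.0019 on dates 1 and 2, and -0.035 to 0.054 when leaving out 1 sample. Mavs at 100 IU/ml IFN beta was 0.011 with quantile normalization, 0.045 with normexp and 0.056 in the authors' table, and -0.061 to 0.013 leaving out 1. IFN epsilon minus IFN beta with all 24 arrays at 10 IU/ml was -0.71 for Tlr3 and -0.040 for Eif2ak2. At 1000 IU/ml it was -0.038 for Ddx58 and -0.19 for Mavs with median scaling, and for Eif2ak2 0.0065 in the authors' table and 0.11 on dates 1 and 2. Leaving out 1 sample there gave -0.17 to 0.83 for Tlr3, -0.25 to 0.14 for Eif2ak2 and -0.031 to 0.093 for Mavs. At 10 IU/ml IFN beta it gave -0.034 to 0.30 for Ifih1 and -0.060 to 1.06 for Tlr3.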
